A study of Mus musculus with 4 samples.

Results

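The prolactin, pregnancy-specific glycoprotein (Psg), carcinoembryonic antigen-related (Ceacam), trophoblast-specific protein (Tpbp), Ctla2 and placental cathepsin families were represented by 81 of the 45037 probe sets on the array. Members were all probe sets whose platform symbols name Prl or a numbered Prl, Psg or Ceacam gene, Tpbpa, Tpbpb, Ctla2a, Ctla2b, or one of the cathepsins Ctsj, Ctsm, Ctsq, Ctsr, Cts3, Cts6, Cts7 and Cts8. They name 52 of the 19324 genes that the platform symbols name, and 6 probe sets were shared by several symbols. The families were picked on the Cre minus Vec differences of Prl, Ctla2a and Ctla2b on these same arrays, so the differences of all members are given as a description. Calls that a model across all probe sets makes on members are stated once and support nothing.

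Total RNA came from immortalized mouse brown preadipocytes (cells that can mature into brown fat cells) of a mixed C57/BL6-129 strain with floxed alleles of G9a, the histone H3 lysine 9 methyltransferase encoded by Ehmt2. The Cre group (labelled G9a knock out) and the Vec group (labelled wild type, vector only) held 2 arrays each, numbered 1 and 2, and both groups carry the floxed alleles. The series concerns G9a in adipogenesis. The labels do not say whether arrays of a group were separate cultures. In both groups arrays 1 and 2 differed in the sex-linked transcripts Xist and Eif2s3y, so the spread between them is not only technical. So few arrays limit the precision. Values are MAS5 signals, 1 per probe set and array, on a linear scale. Ehmt2 read 953.1 and 912 in Cre arrays 1 and 2, against 2681.8 and 2688.1 in Vec arrays 1 and 2. Array medians were 78 and 52.5 in Cre arrays 1 and 2, and 67.2 and 50.6 in Vec arrays 1 and 2. Differences below are Cre minus Vec within a replicate number (pair 1 or pair 2), on log2(signal + 16) after quantile normalization. The scale understates the change of dim probe sets. Preadipocyte and mesenchymal markers were above the array median on all 4 arrays for 8 of 8 genes measured, Col1a1 and Col3a1 among them. Their summed signal was 57639.3 and 54299.7 in Cre arrays, against 51888.3 and 45507.5 in Vec arrays, and collagens make up most of it. Among these 8 genes Dlk1, a preadipocyte marker, was lower in Cre in both pairs (-1.72 and -0.11), as were Pdgfra (-1.25 and -0.41) and Cd34 (-0.67 and -0.21), none of which passed limma with or without the replicate block (adjusted p of 0.108 or more). Pdgfrb (0.34 and 0.47), Col1a1 (0.16 and 0.11), Col1a2 (0.08 and 0.17) and Col3a1 (0.34 and 0.68) were higher in both pairs. Thy1 pointed in opposite directions (0.28 and -0.24). Of the 8, only Col3a1 passed, and only with the block (limma adjusted p = 0.0155).

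Prolactin is a pituitary hormone that acts through the prolactin receptor, the kinase JAK2 and the transcription factor STAT5, and is best known for its part in lactation. In rodents its gene was duplicated many times, and most copies are expressed in trophoblast cells of the placenta or in the decidua. Psg proteins are secreted members of the immunoglobulin superfamily made by trophoblast, and Ceacam proteins are related adhesion molecules. The placental cathepsins are rodent cysteine proteases that arose from cathepsin L, and the Ctla2 proteins resemble the inhibitory propeptide of cathepsin L and block such proteases. G9a methylates lysine 9 of histone H3, a mark associated with gene silencing.

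Of the 81 members, 4 were higher in Cre by 2-fold or more in both pairs: Prl, Ctla2b, Ctla2a and the probe set shared by the 2 Ctla2 genes. Over all probe sets on the array, 0.739% met this rule. In the other direction 0 of 81 members met it, against 0.275% of all probe sets. Because this contrast had been seen when the families were picked, nothing is read from the difference between these shares, and 3 of the 4 probe sets report on the same 2 Ctla2 genes. The signals of leading probe sets are shown array by array.

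**Figure D1:**
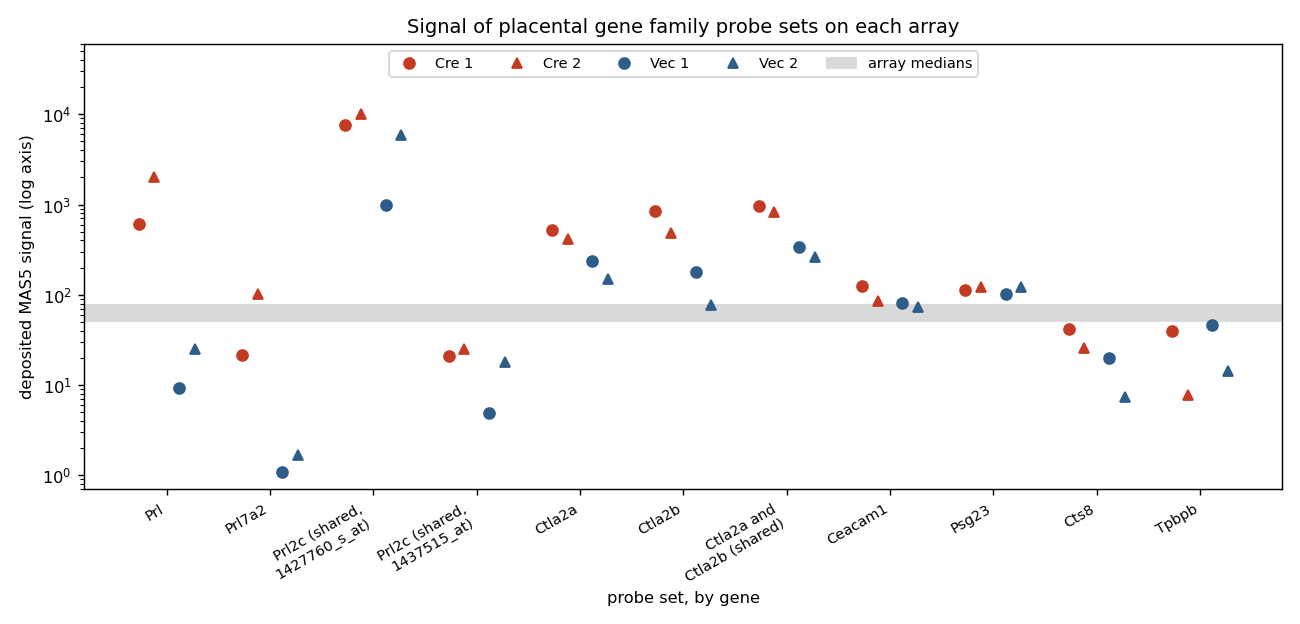
Deposited MAS5 signal (log axis) of 11 member probe sets on the Cre arrays (red) and Vec arrays (blue), replicate number 1 as circles and number 2 as triangles, with 1 point per array and the range of array medians as a grey band. Prl read 600.9 and 1991.6 in Cre arrays, against 9.2 and 25.4 in Vec arrays, and all 3 Ctla2 probe sets were higher in both Cre arrays than in both Vec arrays.

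Prl, the gene of prolactin itself, read 600.9 and 1991.6 in Cre arrays 1 and 2, against 9.2 and 25.4 in Vec arrays 1 and 2. Both Vec readings lay below the array medians and both Cre readings above them, so the groups did not overlap. The difference was 4.58 in pair 1 and 5.39 in pair 2, with a mean of 4.99 ± 0.57 (SD, n = 2 pairs), which is 24-fold and 41.9-fold. By mean difference it ranked 2 among the 45037 probe sets. The Vec readings are dim, so the fold depends on the pseudocount: with 64 in place of 16 the mean difference was 3.78, and with 1 it was 5.90. Array 2 was above array 1 in both groups, by 1.73 in Cre and by 0.93 in Vec. A single probe set (1429287_a_at) carried the symbol, so no second one was at hand to set beside it.

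The promoter of Prl is shown because its transcript had the largest difference of the members. In pituitary lactotrophs Prl is driven by the transcription factor POU1F1. The sequences here are RefSeq windows on GRCm38.p6, from 250 bases before to 50 after the annotated start, 5′ to 3′ on the gene's strand. Capitals mark letters that match TATANA (TATA box), ATGNATA (POU1F1), TGANTCA (AP-1) or TTCNNNGAA (STAT5), each searched on both strands, and matches that overlap run together as 1 stretch. Matching letters are a description and not evidence of a site. The Prl window is chr13:27057320-27057619, plus strand:
Prl: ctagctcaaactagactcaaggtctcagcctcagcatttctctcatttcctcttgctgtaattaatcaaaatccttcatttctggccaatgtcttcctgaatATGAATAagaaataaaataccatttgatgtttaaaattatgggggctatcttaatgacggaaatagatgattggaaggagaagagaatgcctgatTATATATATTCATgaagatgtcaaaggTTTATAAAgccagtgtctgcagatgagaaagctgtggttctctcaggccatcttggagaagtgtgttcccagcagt
It held 2 matches of the POU1F1 letters, which were present in 8.84% of all 32851 promoter windows of this length, and TATA box letters, present in 24.7%. At -47 the POU1F1 match overlaps TATA box letters. It held 1 CpG, the dinucleotide that DNA methylation acts on, where the median of all windows was 7. For 45 of the 52 member genes 52 windows were found, with 0 to 5 CpG and a median of 2. The TATA box letters were in 32 of these 52 windows, the POU1F1 letters in 9, the AP-1 letters in 14 and the STAT5 letters in 11. Over all windows the AP-1 letters were in 7.81% and the STAT5 letters in 8.30%. Windows of duplicated genes are not independent, so nothing is read from these counts.

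Prl7a2 encodes prolactin-like protein F, a placental hormone that acts on megakaryocytes in the mouse. It read 21.4 and 101.9 in Cre arrays 1 and 2, against 1.1 and 1.7 in Vec arrays 1 and 2. Only Cre array 2 was above its array median, and the groups did not overlap. The difference was 0.91 in pair 1 and 2.86 in pair 2 (mean 1.88 ± 1.37, SD, n = 2 pairs), so the probe set lies just outside the 2-fold rule, while Ctla2a, with 1.12 and 1.28, lies just inside it. With the scaling as deposited or a pseudocount of 1, Prl7a2 met the rule too, and with a pseudocount of 64 its mean difference was 0.87.

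Prl7a1, the neighbouring gene of prolactin-like protein E, had 3 probe sets. The highest of them (1449529_s_at) read 19.1 and 40.2 in Cre arrays, against 6.8 and 15.9 in Vec arrays, all 4 below the array medians. The deposited readings of the groups did not overlap, but after normalization they did, with differences of 0.43 and 0.83. With a pseudocount of 1 in place of 16 this probe set met the 2-fold rule. The other 2 Prl7a1 probe sets read between 0.3 and 1.8 on all arrays, and 1 of them was higher in both Cre arrays. The promoters of the 2 genes are shown side by side because the genes are neighbours and paralogs. They are Prl7a2 (chr13:27667987-27668286, minus strand) and Prl7a1 (chr13:27642444-27642743, minus strand):
Prl7a2: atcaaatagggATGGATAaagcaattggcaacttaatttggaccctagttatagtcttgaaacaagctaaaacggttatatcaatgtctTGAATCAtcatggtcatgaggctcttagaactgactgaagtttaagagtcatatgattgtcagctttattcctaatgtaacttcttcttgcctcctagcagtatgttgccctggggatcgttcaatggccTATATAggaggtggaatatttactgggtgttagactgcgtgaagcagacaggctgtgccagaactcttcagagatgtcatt
Prl7a1: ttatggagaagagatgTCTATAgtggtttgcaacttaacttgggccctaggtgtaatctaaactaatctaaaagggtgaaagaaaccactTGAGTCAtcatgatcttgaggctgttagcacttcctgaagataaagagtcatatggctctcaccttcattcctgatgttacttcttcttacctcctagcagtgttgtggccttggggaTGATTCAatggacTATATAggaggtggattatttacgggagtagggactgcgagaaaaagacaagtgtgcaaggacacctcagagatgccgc
The 2 windows were identical at 231 of 295 aligned bases (78.3%). Both held AP-1 letters, present in 7.81% of all windows, and TATA box letters.

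Proliferin, a secreted angiogenic member of the family encoded by the Prl2c genes, was first found as a transcript of growing mouse fibroblasts. The probe set 1427760_s_at is shared by Prl2c2, Prl2c3, Prl2c4 and Gm7040, near-identical copies whose signals cannot be told apart. It read 7511.9 and 10013.6 in Cre arrays 1 and 2, against 989.6 and 5947.6 in Vec arrays 1 and 2. All 4 arrays were above their medians, at percentiles of 98.2 and 98.7 in Cre arrays, against 83.7 and 97.1 in Vec arrays, so proliferin signal was strong in both groups. Both Cre arrays were above both Vec arrays. The difference was 3.0 in pair 1 and 0.72 in pair 2 (mean 1.86 ± 1.61, SD, n = 2 pairs), that is 8.01-fold and 1.65-fold. Array 2 was above array 1 by 0.28 in Cre and by 2.56 in Vec, so in Vec the 2 arrays differed by more than the groups did in pair 2. Without Vec array 1 the difference of group means was 0.58, and without Vec array 2 it was 3.14, so that Vec array decides its size. The second shared probe set (1437515_at), which adds Prl2c5, read 21.2 and 25.4 in Cre arrays, against 4.9 and 17.9 in Vec arrays, with differences of 0.62 and 0.28. All 4 readings lay below the array medians.

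Promoters of 2 proliferin genes are shown because they make plain how little separates the copies. They are Prl2c3 (chr13:12800030-12800329, minus strand) and Prl2c5 (chr13:13182466-13182765, plus strand):
Prl2c3: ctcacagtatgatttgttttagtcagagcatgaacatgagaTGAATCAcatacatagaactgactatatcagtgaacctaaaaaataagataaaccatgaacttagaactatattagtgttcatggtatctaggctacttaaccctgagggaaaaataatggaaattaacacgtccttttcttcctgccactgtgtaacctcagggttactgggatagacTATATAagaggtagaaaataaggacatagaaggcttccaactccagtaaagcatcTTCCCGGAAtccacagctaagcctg
Prl2c5: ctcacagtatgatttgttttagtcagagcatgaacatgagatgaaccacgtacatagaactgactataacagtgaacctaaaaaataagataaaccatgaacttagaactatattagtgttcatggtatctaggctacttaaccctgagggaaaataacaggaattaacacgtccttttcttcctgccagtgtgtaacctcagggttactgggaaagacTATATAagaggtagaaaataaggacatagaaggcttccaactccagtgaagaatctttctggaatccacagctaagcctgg
They were identical at 287 of 299 aligned bases (96%). AP-1, a dimer of Fos and Jun proteins, is known to act on proliferin transcription in mouse fibroblasts. AP-1 letters were in the Prl2c3 window and not in that of Prl2c5, which says only that these letters are not in that window.

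The placental prolactin genes other than Prl7a2 and Prl2c, Prl7a1 included, were 16 genes on 20 probe sets and stayed low on every array. Their signals lay between 1.4 and 56.9 in Cre array 1 and between 0.4 and 40.2 in Cre array 2, against 0.3 to 37.5 in Vec array 1 and 0.3 to 37.9 in Vec array 2. None of the 20 was above its array's median on any array, and 0 of 20 met the 2-fold rule with the pseudocount of 16. Their mean differences ran from -0.52 to 0.63 with a median of 0.05, against a median of -0.01 over all probe sets. Prl8a2, the gene of decidual prolactin-related protein, read 49.7 and 21.9 in Cre arrays, against 37.5 and 22.4 in Vec arrays. Prl7d1, which encodes the antiangiogenic proliferin-related protein, read 5.6 and 11.3 in Cre arrays, against 8.8 and 1.9 in Vec arrays. Prl2a1 read 54.5 and 27.3 in Cre arrays, against 25.2 and 22.6 in Vec arrays, with no overlap and differences of 0.53 and 0.15. Prl7c1 read 42.6 and 3.5 in Cre arrays, against 32.9 and 21.2 in Vec arrays, and was 2-fold lower in pair 2 only (-1.08, against 0.04 in pair 1).

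Ctla2b was 4.76-fold higher in Cre in pair 1 and 4.82-fold higher in pair 2. It read 853.9 and 486 in Cre arrays 1 and 2, against 178.3 and 77.5 in Vec arrays 1 and 2, all above the array medians. The mean difference was 2.26 ± 0.01 (SD, n = 2 pairs), so the pairs differed by far less than the groups. That close match of the pairs belongs to this scale: the ratios of the deposited readings were 4.79 and 6.27. Over the alternatives tried, leaving out each array included, the Ctla2b difference ran from 1.90 to 2.63. Ctla2a read 522.3 and 414.8 in Cre arrays, against 238.1 and 149.2 in Vec arrays, which is 2.17-fold and 2.43-fold (mean difference 1.20 ± 0.11, SD, n = 2 pairs). The probe set shared by both genes (1416811_s_at) read 974.9 and 819.8 in Cre arrays, against 337.1 and 260.2 in Vec arrays, which is 2.96-fold and 2.84-fold. On each of the 3 probe sets every Cre array was above every Vec array. In both groups array 2 was below array 1, by 0.71 in Cre and 0.73 in Vec for Ctla2b and by 0.19 and 0.35 for Ctla2a.

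Both proteins were first described in activated T cells and mast cells of the mouse. Of 7 T cell and other leukocyte markers measured, 1 (Cd8a) was above the array median on all 4 arrays, and Ptprc, the common leukocyte antigen, read 2.9 and 4.5 in Cre arrays, against 10.1 and 11.9 in Vec arrays. Their summed signal was 295.4 and 143.3 in Cre arrays, against 216.7 and 136.7 in Vec arrays. Of 5 mast cell markers, the tryptase gene Tpsab1 read 627.4 and 1101.7 in Cre arrays, against 57.9 and 66.1 in Vec arrays. The other 4, Kit, Cpa3, Fcer1a and Mcpt4, read between 1.5 and 43.5 on all arrays and were above no array median. The 5 summed to 733.9 and 1144.2 in Cre arrays, against 135.2 and 138.9 in Vec arrays. Of 5 endothelial markers Kdr read 162.1 and 61.6 in Cre arrays, against 75.1 and 7.6 in Vec arrays. Pecam1, Cdh5, Tie1 and Tek read between 1 and 57.4 on all arrays and were above no array median. Of these Tek differed by 1.45 and 0.52, Cdh5 by 0.15 and 0.14, Tie1 by 0.03 and 0.03 and Pecam1 by 0.32 and -0.01. The 5 summed to 285.6 and 115.9 in Cre arrays, against 130.8 and 47.6 in Vec arrays. The part of such cells in the Ctla2 signal was not tested, and in bulk RNA fewer cells of a type and less RNA per cell cannot be told apart.

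The promoters of the Ctla2 genes are shown because both transcripts differed in the same direction in both pairs. They are Ctla2a (chr13:60936576-60936875, minus strand, the first of its 2 windows) and Ctla2b (chr13:60897398-60897697, minus strand):
Ctla2a: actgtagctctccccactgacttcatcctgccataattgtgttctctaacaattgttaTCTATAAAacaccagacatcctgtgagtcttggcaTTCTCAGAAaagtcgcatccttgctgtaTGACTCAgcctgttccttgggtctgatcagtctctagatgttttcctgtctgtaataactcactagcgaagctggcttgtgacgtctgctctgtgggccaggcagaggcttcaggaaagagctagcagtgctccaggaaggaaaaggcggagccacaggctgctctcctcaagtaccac
Ctla2b: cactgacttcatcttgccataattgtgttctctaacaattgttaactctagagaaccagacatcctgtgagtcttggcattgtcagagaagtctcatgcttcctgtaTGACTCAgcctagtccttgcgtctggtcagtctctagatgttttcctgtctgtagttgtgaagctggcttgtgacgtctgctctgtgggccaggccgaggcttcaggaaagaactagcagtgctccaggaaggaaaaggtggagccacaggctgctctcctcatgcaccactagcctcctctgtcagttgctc
They were identical at 255 of 278 aligned bases (91.7%). Both windows held the same AP-1 letters, at -129 in Ctla2a and -143 in Ctla2b, counted with the annotated start at 0. The STAT5 letters, present in 8.30% of all windows, and TATA box letters were in the Ctla2a window only. The windows held 4 and 3 CpG.

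Along chromosome 13, the analysed genes of the prolactin cluster and of the Ctla2 and cathepsin cluster were mostly dim. Apart from Prl, Prl7a2 and the Ctla2 genes, they read below every array median and did not meet the 2-fold rule. Such dim readings cannot show whether the higher signals extended over whole clusters. In RefSeq gene order, Ctla2b, Tpbpb, Ctla2a and Tpbpa follow each other, and the placental cathepsins come next. Tpbpb lies between the Ctla2 genes and read 39.8 and 7.8 in Cre arrays, against 46.3 and 14.3 in Vec arrays (1456246_x_at), below every array median. Its differences were -0.36 and -0.42, and the groups overlapped, while a second Tpbpb probe set was lower in both Cre arrays, with 7.1 and 7.6 against 24.5 and 13.1 in Vec arrays. Tpbpa, a marker of spongiotrophoblast, had 3 probe sets that read between 0.9 and 21.3 on all arrays.

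On the other side of Ctla2b stands 4930486L24Rik, a gene outside the families, chosen after its values were seen. It read 319.2 and 187.6 in Cre arrays, against 83.6 and 54.6 in Vec arrays, a mean difference of 1.57 ± 0.29 (SE, n = 2 against 2). Without the pairing it did not pass (limma adjusted p = 0.403), and with the replicate number as a block it rose (limma adjusted p = 0.00504). In the prolactin cluster of 23 genes, 18 had a probe set, and Prl and Prl7a2 stood at places 1 and 17 of the order. The 5 genes Prl3d1, Prl3d2, Prl3d3, Prl3b1 and Prl2c1 were not analysed here. The flanking genes Hdgfl1 and Sox4 differed by -0.60 and -0.63 and by -0.09 and -0.31 in pairs 1 and 2.

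**Figure D2:**
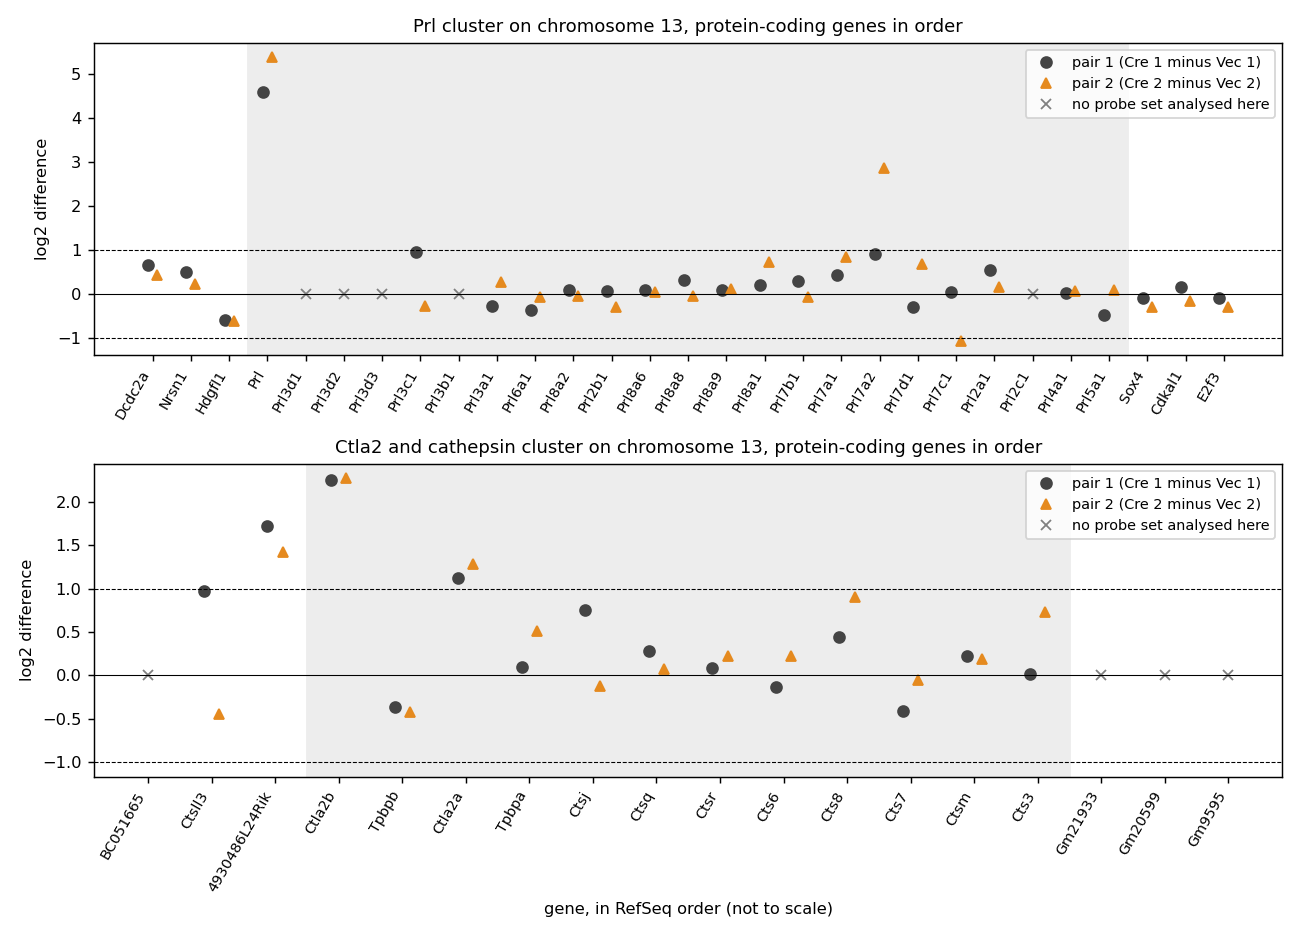
Cre minus Vec difference on log2(signal + 16), in pair 1 (circles) and pair 2 (triangles), of protein-coding genes in RefSeq order along the prolactin cluster (above) and the Ctla2 and cathepsin cluster (below), 1 probe set per gene. The shaded genes belong to the cluster, dashed lines mark 2-fold, and crosses mark genes with no probe set analysed here. Prl was at 4.58 and 5.39, Prl7a2 at 0.91 and 2.86, Ctla2b at 2.25 and 2.27 and Ctla2a at 1.12 and 1.28. Tpbpb, between the Ctla2 genes, was at -0.36 and -0.42. On the other side of Ctla2b, 4930486L24Rik, outside the families, was at 1.72 and 1.42, above Ctla2a in both pairs.

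The 8 placental cathepsin genes, on 10 probe sets, were low throughout, with signals from 0.4 to 41.4 and 0 of 10 above any array median. Cts8 (1446266_at) read 41.4 and 25.8 in Cre arrays, against 20 and 7.3 in Vec arrays, with no overlap of the groups. Its differences were 0.44 and 0.90, and a second Cts8 probe set read 0.7 to 2.8 on all arrays. Ctsj read 16.4 and 1 in Cre arrays, against 0.8 and 2.2 in Vec arrays, so the pairs pointed in opposite directions. Of the 10 probe sets, 3 were higher in both Cre arrays than in both Vec arrays and 0 were lower, where 15.1% and 16% of all probe sets on the array were, and nothing is read from these counts.

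The Psg family, 7 genes on 12 probe sets, gave 0 that met the 2-fold rule, and a median difference of 0.01. Psg23 (1418416_x_at) read 113.8 and 122.3 in Cre arrays, against 101 and 122.9 in Vec arrays, above the median of all 4 arrays and with differences of 0.05 and -0.05. Psg28 read 58.4 and 53.1 in Cre arrays, against 50 and 42.6 in Vec arrays. It exceeded the array median on Cre array 2 alone, and its quantile normalized values overlapped between the groups. Psg17, whose product binds the tetraspanin CD9 in the mouse, was higher in both Cre arrays, with 34.9 and 28.8, against 15.9 and 17.8 in Vec arrays (differences 0.45 and 0.41), all below the array medians. Psg21 (1431889_x_at) was 2.16-fold higher in pair 1 and lower in pair 2 (1.11 and -0.59), and 2 other probe sets of that symbol alone differed by at most 0.06 in size in either pair.

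Ceacam1, an adhesion molecule of epithelial and immune cells, was the family's member with signal above the median of all 4 arrays. It read 124.9 and 84.4 in Cre arrays, against 80.7 and 74.1 in Vec arrays (1460681_at), and the groups did not overlap. The differences were 0.43 and 0.10 (mean 0.26 ± 0.24, SD, n = 2 pairs). A probe set shared by Ceacam1 and Ceacam2 (1422123_s_at) was also above all 4 medians, with 84.1 and 71.3 in Cre arrays, against 68.2 and 61.5 in Vec arrays and differences of 0.08 and 0.12. The other 7 probe sets of Ceacam1 alone read between 1.1 and 24.5 on all arrays, so the probe sets of this gene did not read alike. Over the 27 Ceacam probe sets, 11 genes, mean differences ran from -0.46 to 0.46 with a median of 0.01, and 0 met the 2-fold rule.

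Over all 81 members, 29 differed upward in both pairs and 13 downward in both, where all probe sets gave 26.6% and 29.5%. Both Cre arrays were above both Vec arrays for 19 members and below them for 5, where all probe sets gave 15.1% and 16%. The median difference of the members was 0.05, with medians of 0.06 and 0.04 in pairs 1 and 2. The 74 probe sets outside Prl, Prl7a2, Prl2c and Ctla2 had a median of 0.04 and ranged from -0.63 to 0.67.

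**Figure D3:**
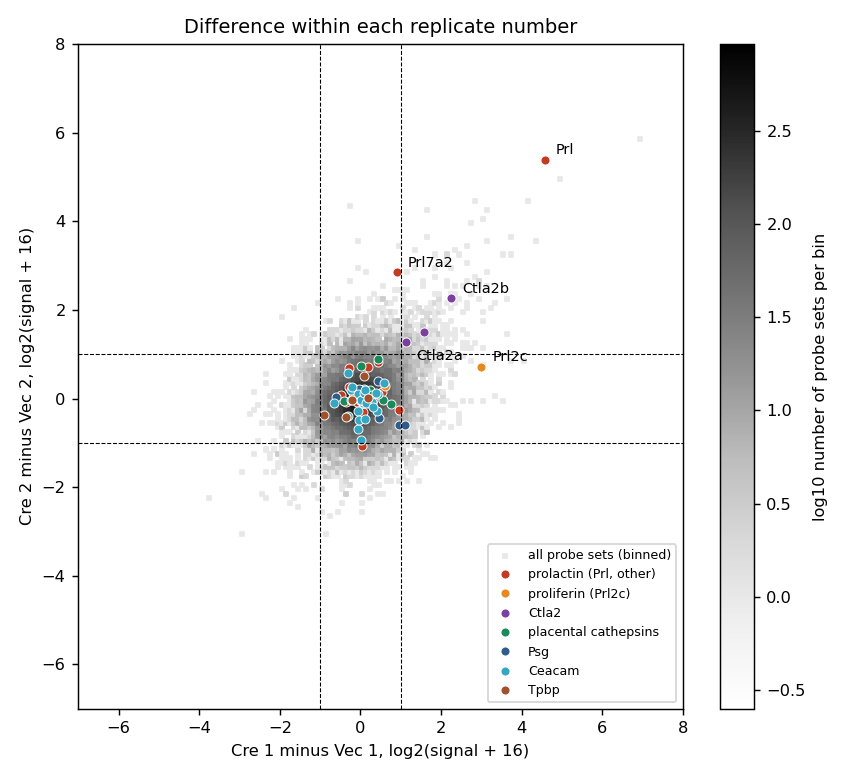
Cre minus Vec difference on log2(signal + 16) in pair 1 (x axis) and pair 2 (y axis) for the 81 members, 1 coloured point per probe set by family, over all 45037 probe sets binned in grey by number. Dashed lines mark 2-fold; Prl lies at 4.58 and 5.39, the Ctla2 probe sets lie beyond 2-fold in both pairs, and most members lie among the bulk of the array near 0.

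A limma model was fitted across the 22519 probe sets whose mean reached the 50th percentile, as did 8 of the 81 members. Prl got there through its Cre values, so the count of 8 says nothing about the families. Without the pairing, 0 of the 8 passed an adjusted p of 0.05 in either direction, against 0.00888% of all tested probe sets called higher and 0.0% called lower (2 and 0, or 14 and 2 with median centring). Unadjusted p-values under 0.05 numbered 610 higher and 320 lower over all tested probe sets. Once the model held the replicate number as a block, 5 of the 8 were called higher, namely Prl, the 3 Ctla2 probe sets and the shared proliferin probe set, and 0 lower, against 2.29% and 0.853% of all tested. The contrast had been seen when the families were picked, so nothing is read from these calls.

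Genes on which prolactin family proteins act did not pass in either model. Of 13 genes listed for the prolactin receptor and JAK2-STAT5 signalling, 12 were tested, and Prlr itself was not analysed here. In limma 0 of 12 passed without the pairing or with the block (against 0 of all 11079 tested genes without it, and 3.25% higher and 0.984% lower with it). Without the pairing 1 of 12, Cd9, had an unadjusted p under 0.05. With the block Cd9, Igf2r and Socs2 did, as did 1858 higher and 1713 lower of all 22519 tested probe sets. Socs2 read 431.7 and 1521.7 in Cre arrays, against 178.5 and 1316.2 in Vec arrays (differences 1.22 and 0.23; limma adjusted p = 0.999, and 0.135 with the block). Cd9, the receptor of mouse Psg17, read 5356.5 and 5801.5 in Cre arrays, against 4382.5 and 3880.6 in Vec arrays (0.44 ± 0.16, SE, n = 2 against 2; limma adjusted p = 0.999, and 0.063 with the block). Igf2r, the mannose-6-phosphate receptor that proliferin binds, differed by 0.56 ± 0.25 (SE; limma adjusted p = 0.999, and 0.0993 with the block). Ptpn11, the gene of the phosphatase SHP2, differed by -0.15 ± 0.12 (SE). The list's median was 0.11, against 0.01 over all tested genes.

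Regulators of trophoblast identity did not pass. Of those measured, 9 were above the array median on at least 1 array and 6 on all 4, namely Gata2, Esrrb, Ets2, Tead4, Fosl1 and Id2. Of 16 listed, 15 were measured and 7 tested, and 0 passed in limma with or without the block, with 0 at an unadjusted p under 0.05 without it and a median of -0.11. Cdx2, a factor of trophoblast stem cells, read 81.4 and 46.9 in Cre arrays, against 42.6 and 25.3 in Vec arrays, and Eomes read 13.4 and 8.5 in Cre arrays, against 24.2 and 29.8 in Vec arrays. Hand1, which directs giant cells, read 106.8 and 47.1 in Cre arrays, against 105.1 and 50.9 in Vec arrays. Among those tested the smallest p belonged to Id2 (0.63 ± 0.32, SE; limma adjusted p = 0.999, and 0.0693 with the block), Fosl1 (-0.40 ± 0.37, SE) and Tead4 (-0.41 ± 0.40, SE). The 6 trophoblast markers measured summed to 257.9 and 140.9 in Cre arrays, against 222.9 and 154.1 in Vec arrays. Of the pituitary markers, Gh, the growth hormone gene, read 47 and 5.1 in Cre arrays, against 6.3 and 21.3 in Vec arrays, and Cga read 11.8 and 12.4 in Cre arrays, against 17.3 and 1.4 in Vec arrays. Pomc was above the median of all 4 arrays, with 218.1 and 191.1 in Cre arrays, against 149.6 and 145.2 in Vec arrays.

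Of 24 listed placental products outside the families, 19 were measured and 9 tested, and 0 passed without the pairing, with 3 at an unadjusted p under 0.05. With the block 2 rose and 1 fell, against 3.25% and 0.984% of all tested genes. Rhox5, a homeobox gene of the X chromosome, rose, with 191.7 and 284.2 in Cre arrays, against 70.5 and 110.3 in Vec arrays (1.18 ± 0.41, SE, n = 2 against 2; limma adjusted p = 0.999, and 0.0184 with the block). Krt18, a keratin gene of simple epithelia and trophoblast, rose, with 526.6 and 244.2 in Cre arrays, against 93.6 and 125.1 in Vec arrays (1.58 ± 0.40, SE; limma adjusted p = 0.684, and 0.0213 with the block). Gjb2, a gap junction gene, fell, with 321.4 and 197.2 in Cre arrays, against 614.8 and 946.9 in Vec arrays (-1.52 ± 0.32, SE; limma adjusted p = 0.532, and 0.00723 with the block). Krt8, the usual partner of Krt18, read 144.2 and 26.8 in Cre arrays, against 34.9 and 84.7 in Vec arrays, so its pairs pointed in opposite directions. The list's median was 0.12 over its tested genes and -0.09 over all measured. Krt18 and Krt8 are also epithelial markers, and the other epithelial markers did not rise in both pairs. Krt19 was lower in Cre in both, with 45.6 and 613.3 in Cre arrays, against 75 and 1221.5 in Vec arrays (-0.74 and -0.91). The pairs pointed in opposite directions for Epcam (0.37 and -0.05) and for the dim Cdh1 (0.34 and -0.02).

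Cathepsins, legumain and cystatins, the proteases and inhibitors of the pathway in which Ctla2 proteins act, gave 0 of 16 tested genes that passed without the pairing and 5 at an unadjusted p under 0.05. With the block 5 rose and 0 fell, against 3.25% and 0.984% of all tested genes. This list, like the others, was chosen with earlier results of these data known, so nothing is read from the counts. The list's median was 0.30 over its tested genes and 0.23 over all measured. Ctsw, a cathepsin known from cytotoxic lymphocytes, rose 4.25-fold, with 1042.9 and 789.9 in Cre arrays, against 278.4 and 138.7 in Vec arrays (2.09 ± 0.32, SE, n = 2 against 2; limma adjusted p = 0.28, and 0.000195 with the block). Ctso rose 2.66-fold, with 678.5 and 486.1 in Cre arrays, against 252.8 and 161.3 in Vec arrays (limma adjusted p = 0.417, and 0.00244 with the block), though a second, dim probe set differed by 0.01. Ctsh, a lysosomal aminopeptidase gene, rose 2.45-fold (limma adjusted p = 0.432, and 0.00145 with the block), and its second probe set 2.73-fold. Lgmn, the gene of legumain, rose 1.66-fold and Cst3, the gene of the secreted inhibitor cystatin C, 1.45-fold (limma adjusted p = 0.0193 and 0.0138 with the block). Ctsl, the protease that Ctla2 proteins inhibit, read 12220.6 and 11616.6 in Cre arrays, against 10561.4 and 9557.6 in Vec arrays (0.19 ± 0.12, SE) and did not pass in either model (limma adjusted p = 0.999, and 0.266 with the block).

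In a list of angiogenesis genes and proliferin related stimuli, 10 of 13 genes were tested, and 0 passed without the pairing, with 2 at an unadjusted p under 0.05. Whether any of them acted on proliferin in these cells was not tested. With the block 2 rose and 0 fell, against 3.25% and 0.984% of all tested genes. Pdgfa rose 1.87-fold, with 3981.9 and 3431.5 in Cre arrays, against 2228.9 and 1737.4 in Vec arrays (limma adjusted p = 0.68, and 0.00287 with the block). Pdgfb rose 2.87-fold, with 685.2 and 296.7 in Cre arrays, against 257.7 and 76.7 in Vec arrays (limma adjusted p = 0.999, and 0.00229 with the block), while its second probe set differed by 0.80 (limma adjusted p = 0.134 with the block). The AP-1 genes Jun, Junb and Fosl1 differed by -0.26, 0.43 and -0.40. The list's median was -0.05.

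**Figure D4:**
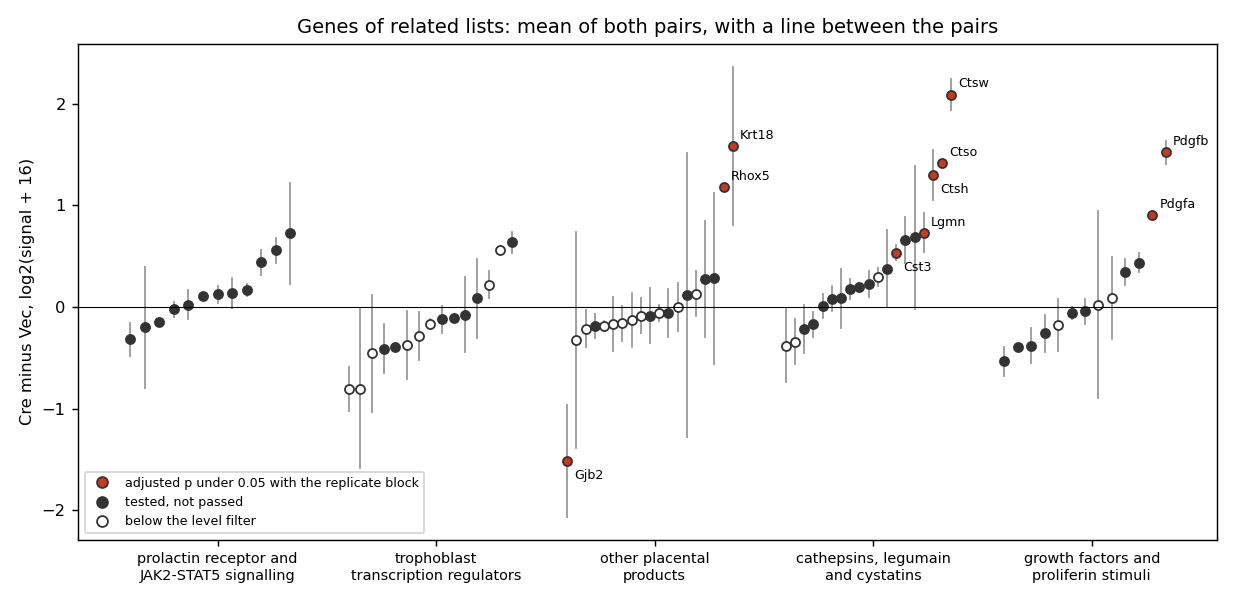
Cre minus Vec difference on log2(signal + 16) of each measured gene in 5 related lists, ordered by size within a list, with points at the mean of both pairs and lines that join pair 1 and pair 2. Red points passed limma with the replicate number as a block, black points were tested and did not pass, and open points were below the level filter. With the block 5 of 16 tested cathepsins, legumain and cystatins rose, against 3.25% of all tested genes, and without the pairing 0 of 16 passed. Of 12 tested genes of prolactin receptor signalling 0 passed in either model. The lists were chosen with earlier results of these data known, so nothing is read from these counts.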

How the data were processed

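The authors deposited 1 linear MAS5 signal intensity per probe set and array. The submitters' processing notes name MAS5; version and settings: not given in the sources used here. The mean of the deposited intensity values, after trimming 2% at each end, was 500 on each array. No detection call was used, so readings below the array median are called low and not absent. Of 45101 probe sets 64 array controls were left out. Symbols came from the platform annotation and, for genes outside the families, were updated to RefSeq of GRCm38.p6 (34741 probe sets matched). That annotation also gave gene order.

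Because array medians differed, the intensities were quantile normalized and taken as log2(signal + 16). lmFit and eBayes with an intensity trend (limma 3.58.1, R 4.3.3) were fitted to probe sets whose mean reached the 50th percentile, with Benjamini-Hochberg adjustment over all of them. The threshold was 0.05. SE are from the model without the block. Genes outside the families were read from their brightest probe set with 1 symbol. The code was tested on simulated data. With 2 arrays in each group, the smallest two-sided p of an exact permutation test is 0.333.

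The labels number the arrays 1 and 2. Same-numbered arrays deviated together from their group means (r = 0.603 across probe sets, which are not independent). A probe set of Xist read 9810 and 58 in Cre arrays 1 and 2, against 11049.4 and 41.8 in Vec arrays 1 and 2, so same-numbered arrays share this pattern, and the numbers were taken to pair them. With that block the model has 1 residual degree of freedom and 9.81 prior ones.

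The members, the lists and the tests were chosen with earlier results of these data known. Named were members above an array median on at least 1 array, members past 2-fold in both pairs, the leading probe set of each family, and, of each list, genes that passed in either model and the 3 with the smallest p. Others are examples chosen after seeing values. The alternatives tried were pseudocounts of 1 and 64, other scalings and filters, a 1.5-fold limit, leaving out shared probe sets, no trend, the block, and leaving out each array. Promoters are RefSeq windows, aligned with Biopython 1.88.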

Additional observations from a re-analysis of the deposited data

How the results depend on the processing

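The count of 4 members at least 2-fold higher in both pairs lay between 3 and 6 under all alternatives, and the count of 0 lower members was 0 except that, with 1 pair left, leave-one-out gave 0 to 1 (Prl7c1). Prl, Ctla2b and the shared Ctla2 probe set met the rule under every alternative that keeps shared probe sets; Ctla2a, close to the limit, did not meet it with a pseudocount of 64 or with median centring. Without Cre or Vec array 2, which leaves pair 1, the proliferin probe set and Psg21 met it, and without Cre or Vec array 1 Prl7a2 did. With a pseudocount of 1, Prl7a2 and a Prl7a1 probe set (1449529_s_at) met it. Of the 104 values that alternatives gave for 12 named members, 0 of the called ones changed sign, 59 moved by less than the SD of the pairs and 45 by more.

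Over all tested probe sets, limma without the pairing called 2 higher and 0 lower; the counts were 1 with a pseudocount of 1, 14 higher and 2 lower with median centring, 0 with no filter, 1 with the 75th percentile filter, 0 without the trend, and 7 to 28 higher and 0 to 3 lower with 1 array left out. The replicate block gave 516 higher and 192 lower. Of the members, 0 were called higher without the pairing, 1 (Prl) with median centring, 1 to 2 with 1 array left out and 5 with the block. Of the lists' genes the block called 9 higher and 1 lower, and all other alternatives 0. The cause of these changes was not tested. With 1 array left out, the lone array is assumed to vary like the others.

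Dim probe sets limit what can be said: 10 of 81 members were above the array median on at least 1 array, and for the rest the readings do not show whether the transcript was detected.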
